A study of Homo sapiens with 33 samples.

Results

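Interferon-stimulated genes were examined in plasmid-transfected HEK293T cells, which derive from human embryonic kidney. The set was 39 named genes out of 26475 gene symbols in a table of RNA-seq read counts, taken by symbol. All 39 were rows of that table, and all 39 had at least 1 count. The 33 libraries formed 11 groups of 3. The 5 constructs, written here as nCas9 (a Cas9 nickase), ABEmax, miniABEmax-V82G, Target-AID and SpACE, were each delivered with 1 of 2 guides, targeting either HEKsite2 or RNF2, and the last group received GFP without any guide. In the labels the negative controls are GFP and nCas9, the A-to-G editors are miniABEmax-V82G and ABEmax, the C-to-T editor is Target-AID, and SpACE edits both bases. Each editor was co-translated with EGFP, and GFP-positive cells were collected by sorting between 36 and 40 h after transfection. All groups carried plasmid DNA, so the levels before transfection were not measured in these groups. Whether replicates came from separate cultures is not stated in the labels, so p-values measure only the spread between these libraries.

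Type I and type III interferons are secreted proteins that bind receptors on the cell surface, and the receptor-bound kinases JAK1 and TYK2 then phosphorylate STAT proteins, STAT2 among them. STAT2 and IRF9 are parts of the complex ISGF3, which binds the interferon-stimulated response element (ISRE) in the promoters of interferon-stimulated genes. Many products of these genes restrict viruses, by binding foreign RNA (the IFIT family), by starting its degradation (the OAS family) or by tagging proteins with the ubiquitin-like ISG15. Foreign DNA in the cytosol is sensed through cGAS and STING and foreign RNA through RIG-I (DDX58), MDA5 (IFIH1) and MAVS, and HEK293T cells are known for weak DNA sensing by the first of these routes.

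Of the 39 genes, 32 had an entry in the RefSeq promoter table (GRCh38.p14; 250 bases before to 50 after the gene start, with DDX58 listed as RIGI). The core letters of the ISRE, GAAA, any 2 bases, then GAAA, on either strand, were found in 19 of these 32 promoters (59.4%) against 1255 of 35116 promoters of the same length (3.57%). The interferon-gamma activated site, TTCNNNGAA, was found in 8 of 32 (25%) against 7.66% of all. A match is a description of the letters only. The 200 bases before the start of 5 genes named in the results below are printed, 5′ to 3′ on the strand of the gene, with ISRE cores in capitals. No test below uses these letters. The windows lie at chr1:1013297-1013496 (plus strand), chr10:89392423-89392622 (plus), chr10:89414368-89414567 (plus), chr1:27672193-27672392 (minus) and chr3:122680639-122680838 (plus). Their starts are those of RefSeq, and the GENCODE gene limits given below can begin elsewhere. The ISG15 and PARP14 windows lie inside those limits.
ISG15: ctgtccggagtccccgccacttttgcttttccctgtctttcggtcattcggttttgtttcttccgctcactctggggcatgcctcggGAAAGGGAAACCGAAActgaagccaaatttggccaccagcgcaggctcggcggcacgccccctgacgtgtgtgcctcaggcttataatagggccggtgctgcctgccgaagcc
IFIT1: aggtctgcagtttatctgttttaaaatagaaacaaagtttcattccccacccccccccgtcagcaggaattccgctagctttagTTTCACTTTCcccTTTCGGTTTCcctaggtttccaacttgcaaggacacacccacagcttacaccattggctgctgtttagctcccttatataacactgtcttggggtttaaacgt
IFIT5: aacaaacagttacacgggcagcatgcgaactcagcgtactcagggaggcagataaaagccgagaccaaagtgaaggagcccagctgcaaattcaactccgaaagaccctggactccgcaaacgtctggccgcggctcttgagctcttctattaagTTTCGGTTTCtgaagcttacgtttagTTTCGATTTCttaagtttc
IFI6: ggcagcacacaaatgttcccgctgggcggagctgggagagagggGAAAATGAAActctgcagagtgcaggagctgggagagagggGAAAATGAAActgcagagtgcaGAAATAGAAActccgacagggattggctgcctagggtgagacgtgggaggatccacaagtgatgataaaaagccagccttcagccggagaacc
PARP14: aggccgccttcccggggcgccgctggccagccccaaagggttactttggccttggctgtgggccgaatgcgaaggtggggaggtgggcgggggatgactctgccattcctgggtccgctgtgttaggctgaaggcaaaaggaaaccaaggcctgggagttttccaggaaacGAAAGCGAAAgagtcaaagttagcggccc

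The ISG15 window held 2 overlapping ISRE cores, which begin 113 and 107 bases before the start. IFIT1 and IFIT5 each held 2 within the printed window and IFI6 held 3, while PARP14 held 1, beginning 29 bases before the start. Of the 12 genes with a promoter entry that passed a test in at least 1 of 10 comparisons described below, 7 had an ISRE core, against 8 of the 12 that were tested and passed none, and 4 of the 8 too low to test.

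The libraries held 6790209 to 11200406 counts each. Levels are given as CPM, counts relative to each library's TMM-scaled total, with ± for the SD over 3 libraries, and differences as log2 fold changes ± SE from edgeR's quasi-likelihood test, with p-values adjusted by Benjamini-Hochberg over the 14613 genes tested. A gene was called at adjusted p under 0.05. HEK293T markers were present (6 of 7 passed the filter on low counts, and PAX2 had 2 to 14 counts per group). Of 7 blood leukocyte markers, 5 had under 20 counts in all libraries together, PTPRC having 7, and CD14 alone was tested, at 21 to 59 counts per group. Of 6 fibroblast markers 3 were tested, and the 6 summed to 20.6 to 27.5 CPM in GFP libraries against 10.3 to 18.8 in the others. Of 4 endothelium markers KDR alone was tested, with 163 and 75 counts in the ABEmax groups and 9 to 26 in every other group. In Target-AID the erythroid genes HBB and HBD stood apart, at 130144 and 145360 counts over 3 libraries with the HEKsite2 guide and 126316 and 131916 with the RNF2 guide, where no other group had more than 22 of either, while the erythroid genes HBA1, HBA2 and ALAS2 had 0 to 3 counts in each Target-AID group.

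Most of the set was expressed at a low level. Counting a gene as expressed where it reached 1 CPM in all 3 libraries of a group, 26 of the 39 were expressed in at least 1 group and 19 in all 11. Also 26 genes passed the filter on low counts (66.7% of the set, against 55.2% of all genes), and the median tested member stood at percentile 18.7 of the tested genes by mean CPM. Only 6 genes had a mean of 10 CPM or more: the ubiquitin ligase TRIM25 (42.9), the ISG15 ligase HERC5 (35.3), STAT2 (29.5), the RNA-binding protein IFIT5 (28.8), the ISG15 protease USP18 (18.4) and the ubiquitin ligase DTX3L (10.99). Per kilobase of exon the order differed, with USP18 at 8.63 CPM per kb, HERC5 at 7.40, IFIT5 at 7.17, STAT2 at 4.83 and TRIM25 at 4.52. Reads of USP18 can be shared with the near-copy USP41, and how they were divided is not given in the sources used here, so its level is uncertain. The 3 highest genes held 45.2% of the summed CPM of the set and the 5 highest 65.0%.

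**Figure D1:**
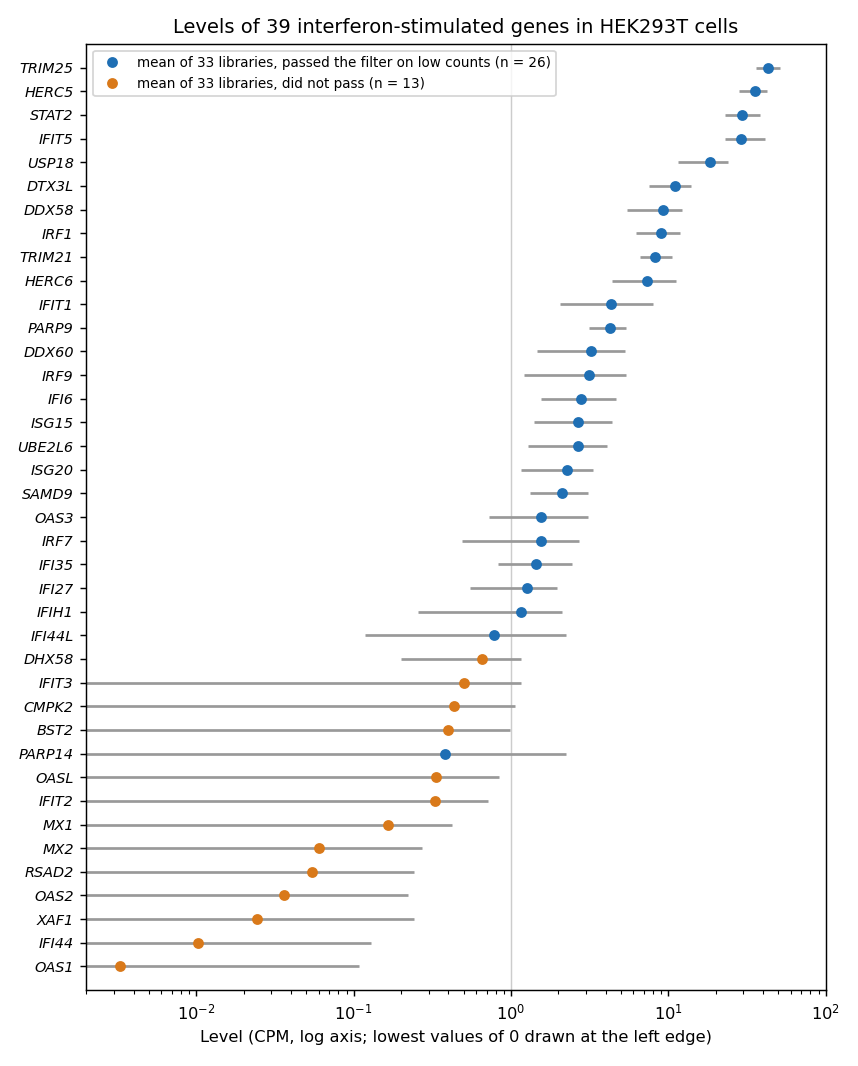
Level in CPM on a log axis of each of the 39 interferon-stimulated genes, with points for the mean of 33 libraries and lines from the lowest to the highest library. The 26 genes that passed the filter on low counts are blue and the 13 that did not are orange; 6 genes have a mean of at least 10 CPM, and OAS1, IFI44 and XAF1 are the lowest.

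Several genes that define a strong interferon response were nearly absent. OAS1, a 2′-5′-oligoadenylate synthetase, had 1 count, in SpACE with the HEKsite2 guide, and 0 in each of the other 32 libraries. Its relative OAS2 had 10 counts over the 33 libraries, and the radical SAM enzyme RSAD2 (viperin) had 16. IFI44 had 3 counts, the pro-apoptotic XAF1 7 and the GTPase MX2 17. MX1, the antiviral GTPase against influenza, had 47 counts in all, from 0 to 4 in a library. In single libraries MX1 had 4, 0 and 1 counts with GFP, 3, 3 and 0 with nCas9 and the HEKsite2 guide, and 0, 1 and 1 with nCas9 and the RNF2 guide. No group stood apart for MX1, since 27 of 33 libraries had a count and each Target-AID, ABEmax, miniABEmax-V82G and SpACE group overlapped the controls. The other genes that did not pass the filter were IFIT2, IFIT3, DHX58, OASL, BST2 and CMPK2, with 93 to 182 counts each. Between them the 13 untested genes summed to 2.02 to 4.63 CPM in a library, and differences in them were not tested.

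The ligands were at the limit of detection. Over all 33 libraries, about 2.85e+08 counts in sum, 8 interferon genes (IFNA1, IFNA2, IFNB1, IFNE, IFNL1, IFNL2, IFNL3 and IFNG) had 32 counts together, with at most 2 counts of a gene in a library. IFNB1, the first type I interferon made after nucleic acid sensing, had 5 counts in 5 libraries, and IFNA1 had 0, which allows a level of up to 0.0105 CPM over all libraries pooled and covers counting error only. Receptor transcripts were present, with 19630 counts for IFNAR1, 4173 for IFNAR2 and 3948 for IFNLR1. The kinases JAK1 (44843 counts) and TYK2 (19264) were abundant as well. Of the sensors, cGAS (MB21D1) had 177 counts and STING (TMEM173) 346, against 24340 for the RNA sensing adaptor MAVS, 13808 for the kinase TBK1 and 11470 for IRF3. The interferon-induced chemokines CXCL10 and CXCL11 had 7 and 9 counts. The RNA came from sorted cells in bulk, where fewer cells with a transcript and less RNA per cell cannot be told apart.

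The set as a whole moved little between groups. Its summed level ran from 217 to 227 CPM in nCas9 with the HEKsite2 guide, the lowest group by mean, and from 252 to 255 in Target-AID with the same guide, the highest. GFP stood at 240 to 250 CPM and nCas9 with the RNF2 guide at 227 to 248, and the 7 other editor groups lay between 221 and 255. Among the 26 tested members GFP held the highest group mean for 7 and the lowest for 4, while nCas9 with the HEKsite2 guide held the highest for 1 and the lowest for 6. Since these sums rest mainly on TRIM25, HERC5, STAT2 and IFIT5, the single genes are described next.

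The comparison of each editor with nCas9 and the same guide asks what the editor adds to the nickase. Low counts give fewer calls, and the median tested member stood at percentile 18.7 of the tested genes by mean CPM. A share of members called below that of all genes is therefore not read as a weaker response. With the HEKsite2 guide, ABEmax gave 0 higher and 0 lower calls among the 26 tested members, where 8.31% and 7.55% of all genes were called higher and lower. Unadjusted p was under 0.05 for 5 members there, and DESeq2 also called 0. With miniABEmax-V82G 2 were higher and 0 lower (5.02% and 5.32% of all genes). Target-AID gave 6 higher and 1 lower, that is 23.1% and 3.85% of the members against 21.5% and 19.1% of all genes, and SpACE gave 3 higher and 2 lower, 11.5% and 7.69% against 10.7% and 10.2%. PARP14, which could be tested only because of its Target-AID counts, is among the 6, and without it 5 of 25 were higher and 1 lower (20.0% and 4.00%). The shares called higher were near the background for SpACE and, with or without PARP14, for Target-AID. The median log2 fold change of the members was 0.13 with ABEmax, 0.16 with miniABEmax-V82G, 0.08 with Target-AID and 0.03 with SpACE, where that of all genes lay between -0.0036 and 0.0035. Leaving out 1 library moved the ABEmax count to 1 (without ABEmax replicate 1, or nCas9 replicate 2) and the miniABEmax-V82G count to 0 (without nCas9 replicate 2, or miniABEmax-V82G replicate 3) or 1 (without nCas9 replicate 1 or 3, or miniABEmax-V82G replicate 2), and the SpACE count fell from 5 to 3 without SpACE replicate 1.

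With the RNF2 guide ABEmax again gave 0 and 0 (6.51% and 4.66% of all genes), with 1 member at an unadjusted p under 0.05 and 0 by DESeq2. The miniABEmax-V82G group had 0 higher and 1 lower (6.88% and 5.72%), Target-AID 3 higher and 2 lower (19.4% and 15.8%) and SpACE 1 and 1 (8.03% and 6.68%). The members' shares with Target-AID, 11.5% and 7.69%, were below those of all genes, as were those without PARP14, where 2 of 25 were higher and 2 lower. The median member stood at -0.0044 with ABEmax, -0.10 with miniABEmax-V82G, 0.0097 with Target-AID (-0.0050 without PARP14) and -0.12 with SpACE on the log2 scale. Without Target-AID replicate 1 the 5 Target-AID calls became 2, and without nCas9 replicate 2 or Target-AID replicate 2 they became 3. The single miniABEmax-V82G call was lost without nCas9 replicate 1 or 2, and the SpACE count fell from 2 to 1 without nCas9 replicate 1.

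Between the controls, nCas9 with the HEKsite2 guide had 2 members higher and 4 lower than GFP (19.6% and 18.8% of all genes), and with the RNF2 guide 3 higher and 4 lower (21.0% and 20.5%). The nickase, the guide and the plasmid cannot be told apart in these comparisons, and both share the 3 GFP libraries. In the 10 comparisons together 13 of the 26 tested members were called at least once, PARP14 among them, and 13 never. Apart from PARP14, which had 1 or 2 counts in each nCas9 group, the largest called change between an editor and nCas9 was the fall of IFI6 by 1.06 with Target-AID. Set against GFP in place of nCas9, which shares the same GFP libraries throughout, the editors with the HEKsite2 guide had 9 members called with ABEmax (46.8% of all genes), 9 with miniABEmax-V82G (39.8%), 6 with Target-AID (46.4%) and 7 with SpACE (36.6%). With the RNF2 guide the counts were 6 (49.6%), 11 (47.0%), 7 (46.2%) and 6 (37.9%). With 26 members tested, all 8 counts were below the share of all genes called. Most members have low counts, which give fewer calls, and the part of this in the lower shares was not tested.

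**Figure D2:**
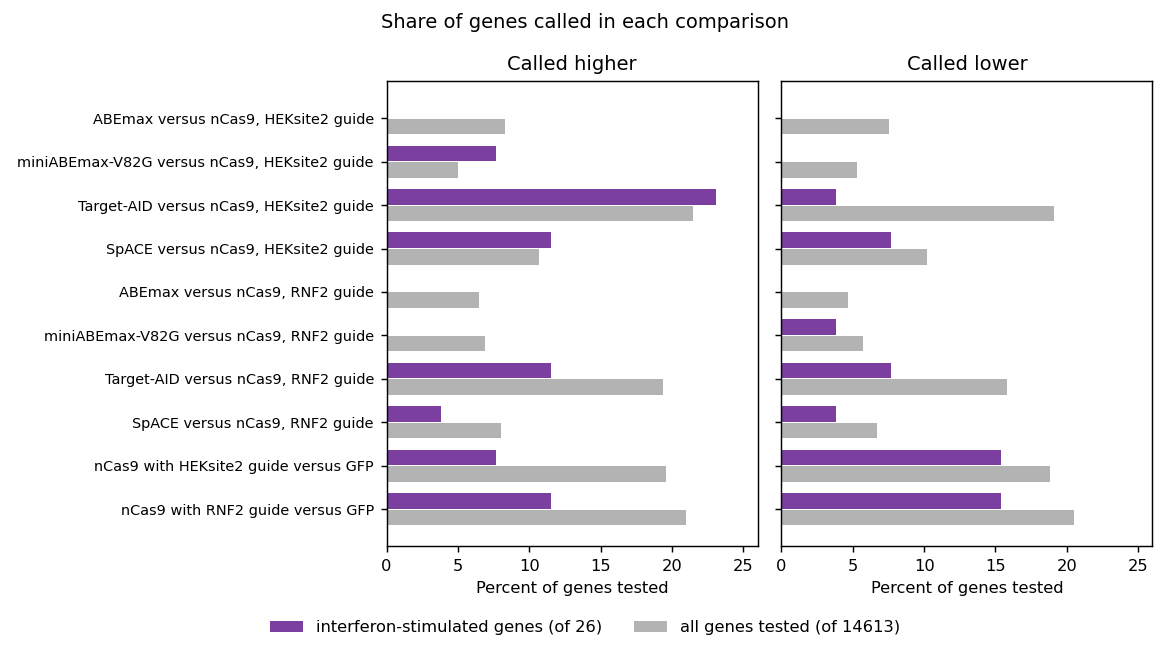
Percent of genes called higher (left) and lower (right) at adjusted p under 0.05 in the 10 comparisons, for the 26 tested interferon-stimulated genes (purple) and all 14613 tested genes (grey). The widest gap is in the genes called lower with Target-AID and the HEKsite2 guide, 3.85% of the set against 19.1% of all genes. The median member stood at percentile 18.7 of the tested genes by mean CPM, and low counts give fewer calls. PARP14 is counted among the members called higher with Target-AID.

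ISG15 and the enzymes that attach and remove it were examined first. ISG15 (chromosome 1, 1001138 to 1014540 on GRCh38), the ubiquitin-like modifier itself, was lowest in GFP at 1.39, 1.41 and 2.21 CPM. It stood at 2.91, 4.07 and 2.47 CPM in nCas9 with the HEKsite2 guide and at 2.55, 4.37 and 2.18 with the RNF2 guide, so only nCas9 replicate 3 with the RNF2 guide lay inside the GFP range. Against GFP it rose by 0.91 ± 0.267 (adjusted p = 0.00595) and 0.87 ± 0.267 (adjusted p = 0.00758) on the log2 scale. Without nCas9 replicate 2 the first became 0.70 and the second 0.52, and neither call held. In the editors ISG15 ran from 2.96 to 3.98 CPM with ABEmax, 2.19 to 3.49 with miniABEmax-V82G, 1.92 to 3.09 with SpACE and 1.71 to 2.60 with Target-AID over both guides. All 10 group means were above that of GFP, and 5 of the 8 editor groups were called higher than GFP, from 0.73 to 1.15. No editor differed from nCas9 beyond the threshold. The group with the highest mean was ABEmax with the RNF2 guide at 3.68 ± 0.430 CPM, which overlapped nCas9.

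UBE2L6, the conjugating enzyme for ISG15, was at 2.39, 1.505 and 1.77 CPM in GFP and at 3.60, 3.49 and 2.05 in nCas9 with the RNF2 guide, a rise of 0.70 ± 0.274 (adjusted p = 0.0372). Target-AID with that guide had 1.28, 1.90 and 2.36 CPM, and UBE2L6 fell by 0.72 ± 0.279 against nCas9 (adjusted p = 0.0380). The groups overlapped in both cases. Each call was lost in 4 of 6 fits that left out 1 library: against GFP the value was 0.55 and 0.66 without GFP replicate 2 and 3, and 0.56 and 0.60 without nCas9 replicate 1 and 2, while for Target-AID it was -0.58 and -0.62 without nCas9 replicate 1 and 2 and -0.52 and -0.75 without Target-AID replicate 1 and 2. DESeq2 called neither. HERC6, a relative of the ISG15 ligase, stood at 8.77, 8.28 and 11.1 CPM in GFP and at 7.19, 6.11 and 5.76 in nCas9 with the RNF2 guide. The groups did not overlap, and HERC6 fell by 0.55 ± 0.174 (adjusted p = 0.00983), with values of -0.42 without GFP replicate 3 and -0.49 without nCas9 replicate 3 that did not pass. The ligase HERC5 was called in none of the 10 comparisons and was lower than GFP in 3 of the 8 editor groups, by -0.24 in each.

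USP18, the protease that removes ISG15 and restrains the receptor, was low in 1 control group. It stood at 14.7, 11.5 and 13.5 CPM in nCas9 with the HEKsite2 guide, against 17.2, 16.3 and 20.2 in GFP and 20.2, 19.8 and 19.6 in nCas9 with the RNF2 guide. No library of the first group reached the other two groups. It fell by 0.42 ± 0.121 against GFP (adjusted p = 0.00491). With the same guide it was 16.3, 17.8 and 20.0 CPM in miniABEmax-V82G, 19.6, 18.7 and 18.6 in Target-AID and 19.6, 18.2 and 18.3 in SpACE. Against nCas9 these were rises of 0.44 ± 0.122 (adjusted p = 0.0160), 0.51 ± 0.121 (adjusted p = 0.000681) and 0.49 ± 0.122 (adjusted p = 0.00325). Set against GFP the same groups differed by 0.02, 0.09 and 0.07, and none passed. The miniABEmax-V82G call was lost without nCas9 replicate 2 (0.36) and without miniABEmax-V82G replicate 3 (0.36). Within nCas9 the RNF2 guide was higher than the HEKsite2 guide by 0.58 ± 0.123 (adjusted p = 0.00541), the only member called of 26 there, where 0.602% of all genes were called higher and 1.46% lower. The near-copy USP41 limits each of these values.

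**Figure D3:**
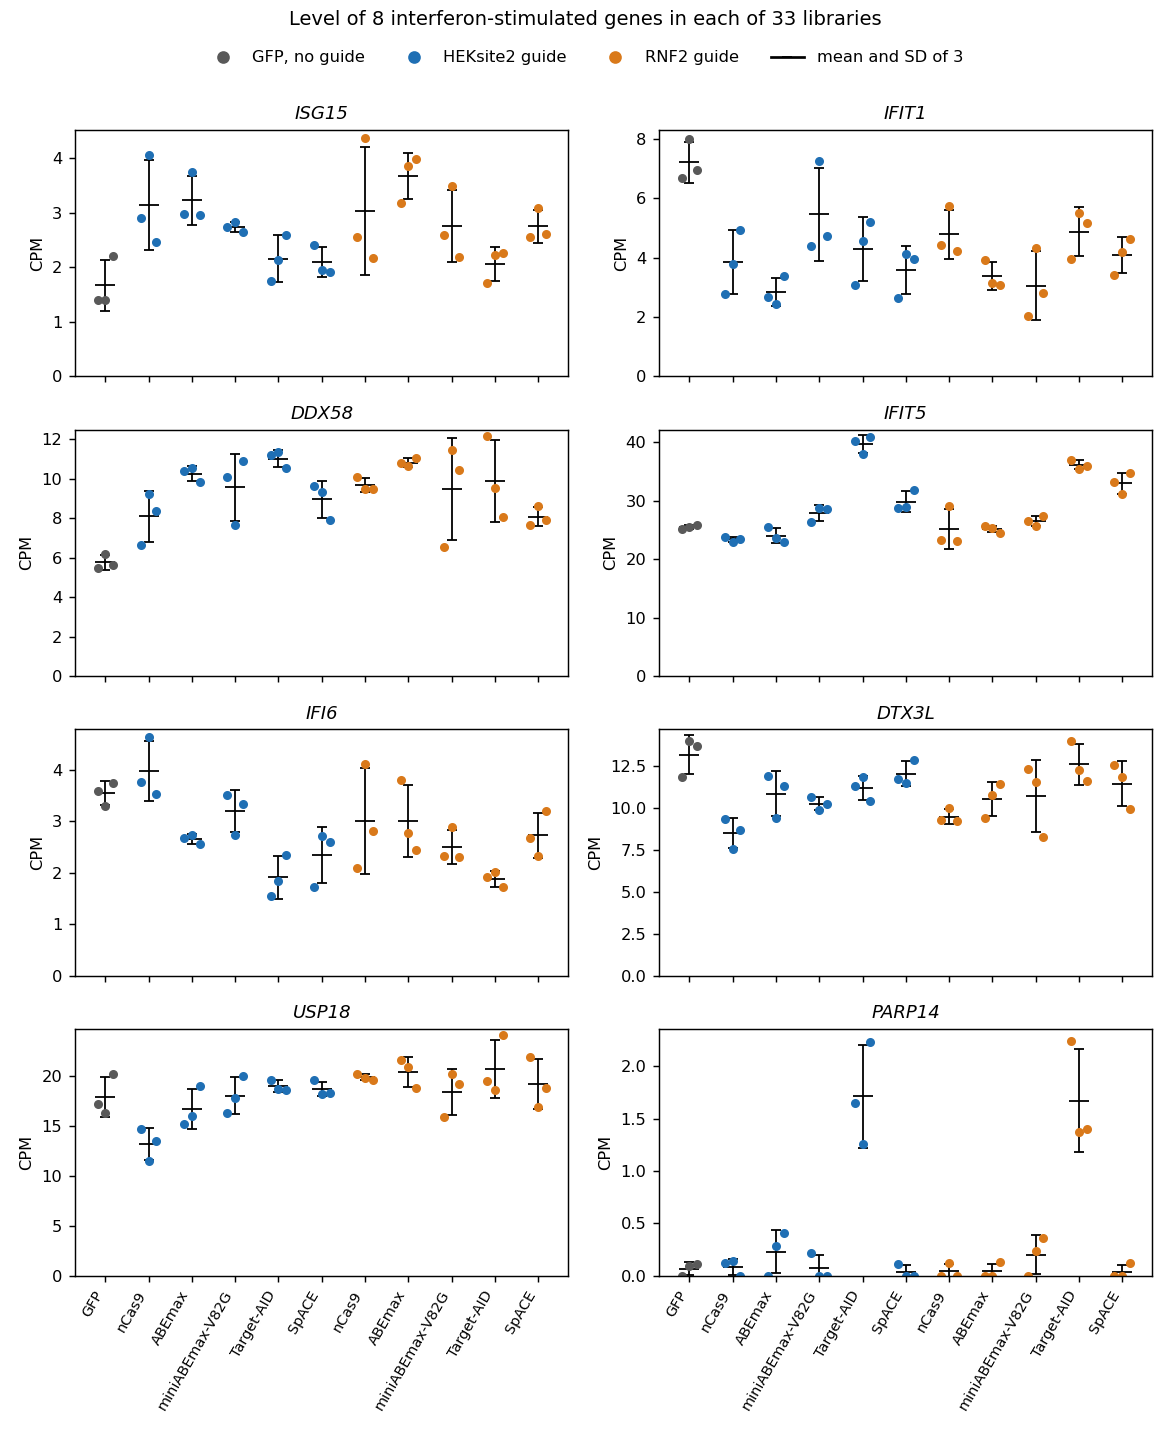
CPM of ISG15, IFIT1, DDX58, IFIT5, IFI6, DTX3L, USP18 and PARP14 in each of 33 libraries, with points for libraries, coloured by guide, and bars for the mean and SD of 3. GFP is lowest for ISG15 and DDX58 and highest for IFIT1 and DTX3L, Target-AID is highest for IFIT5 under both guides, and PARP14 is above 1 CPM only in the 6 Target-AID libraries.

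The IFIT genes lie together on chromosome 10 and encode proteins that bind foreign RNA ends. IFIT1 (89392546 to 89406486) was highest in GFP, at 6.68, 7.99 and 6.95 CPM. It stood at 2.79, 3.79 and 4.94 CPM in nCas9 with the HEKsite2 guide and at 4.41, 5.74 and 4.23 with the RNF2 guide, and no nCas9 library reached the GFP range. It fell by 0.91 ± 0.221 (adjusted p = 0.00107) and by 0.59 ± 0.210 (adjusted p = 0.0212). The second call was lost without GFP replicate 2 (-0.50), nCas9 replicate 1 (-0.53) or nCas9 replicate 3 (-0.51). IFIT1 was thus opposite in direction to ISG15 in the same comparisons. Both printed windows hold ISRE cores, and the part of these cores in either change was not tested. Against GFP it was called lower in 7 of the 8 editor groups, from -1.34 in ABEmax with the HEKsite2 guide to -0.57 in Target-AID with the RNF2 guide. The exception was miniABEmax-V82G with the HEKsite2 guide, at 4.39, 7.26 and 4.72 CPM. That group was above miniABEmax-V82G with the RNF2 guide, at 2.05, 4.33 and 2.79 CPM, where IFIT1 fell by 0.82 ± 0.246 (adjusted p = 0.0269), the 1 member called there against 4.67% of all genes called higher and 5.26% lower. This call was lost without miniABEmax-V82G replicate 2 of the HEKsite2 guide (-0.55) and without replicate 1 (-0.62) or 3 (-0.75) of the RNF2 guide.

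IFIT5 (89414586 to 89421001), which binds RNA with a 5′ phosphate, showed the most regular difference between editors and nCas9. With the HEKsite2 guide it stood at 23.9, 23.0 and 23.4 CPM in nCas9, 40.2, 38.0 and 40.9 in Target-AID and 28.8, 28.97 and 31.9 in SpACE. With the RNF2 guide it was 23.3, 29.1 and 23.2 CPM in nCas9, 37.0, 35.4 and 36.0 in Target-AID and 33.2, 31.2 and 34.7 in SpACE. All Target-AID and SpACE libraries lay above all nCas9 libraries of the same guide. IFIT5 rose by 0.76 ± 0.0779 (adjusted p = 2.69e-10) and 0.52 ± 0.0775 (adjusted p = 1.08e-06) with Target-AID and by 0.35 ± 0.0809 (adjusted p = 0.00169) and 0.39 ± 0.0788 (adjusted p = 0.000502) with SpACE. These 4 calls held in each fit that left out 1 library. They also held against GFP, where IFIT5 was 25.2, 25.6 and 25.9 CPM. In miniABEmax-V82G with the HEKsite2 guide, at 26.3, 28.7 and 28.6 CPM, IFIT5 rose by 0.25 ± 0.0814 (adjusted p = 0.0403). That call was lost in 5 of 6 fits without a library, namely without nCas9 replicate 1 (0.27), 2 (0.24) or 3 (0.25) and without miniABEmax-V82G replicate 2 (0.24) or 3 (0.23), and under DESeq2 (0.25). ABEmax stood at 23.0 to 25.6 CPM over both guides and was not called. The neighbours IFIT2 and IFIT3 had too few counts to test, so whether the cluster moved together was not tested.

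Of the RNA sensors, DDX58 (RIG-I; chromosome 9, 32455705 to 32526324) was lowest in GFP at 5.48, 6.21 and 5.63 CPM. It stood at 6.67, 9.25 and 8.35 CPM in nCas9 with the HEKsite2 guide and at 10.1, 9.48 and 9.48 with the RNF2 guide, all above GFP. Against GFP it rose by 0.48 ± 0.172 (adjusted p = 0.0252) and 0.74 ± 0.165 (adjusted p = 0.000334). The first was lost without GFP replicate 1 (0.44) or 3 (0.46) and without nCas9 replicate 2 (0.38) or 3 (0.45), while the second held in each such fit. The editor groups ran from 6.56 to 12.2 CPM, and all 8 were called higher than GFP, from 0.48 in SpACE with the RNF2 guide to 0.93 in Target-AID with the HEKsite2 guide. Target-AID with that guide, at 11.2, 11.3 and 10.5 CPM, was also above nCas9, by 0.46 ± 0.155 (adjusted p = 0.0166). That call was lost without nCas9 replicate 1 (0.34) or Target-AID replicate 2 (0.43).

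IFIH1 (MDA5), the sensor of long double-stranded RNA, was low, at 1.196, 1.505 and 0.883 CPM in GFP, 1.21, 1.54 and 0.588 in nCas9 with the HEKsite2 guide and 0.464, 2.12 and 1.02 with the RNF2 guide. The editor libraries ran from 0.257 to 1.93 CPM and overlapped the controls. Its log2 fold changes ran from -1.02 to 0.42 over the 10 comparisons, with a smallest adjusted p of 0.213. DDX60, a helicase that supports RIG-I signalling, was highest in GFP at 4.18, 5.27 and 3.86 CPM and stood at 3.27, 2.52 and 2.00 in nCas9 with the HEKsite2 guide. It fell by 0.78 ± 0.238 (adjusted p = 0.00816), with -0.63 without GFP replicate 2 and -0.61 without nCas9 replicate 3, where the call was lost. In Target-AID with the HEKsite2 guide it was 4.32, 3.78 and 4.09 CPM, a rise of 0.64 ± 0.244 over nCas9 (adjusted p = 0.0325). This call was lost without nCas9 replicate 2 (0.63) or 3 (0.47), without Target-AID replicate 1 (0.59) or 3 (0.64), and under DESeq2 (0.64). Against GFP the same group differed by -0.14, which did not pass.

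TRIM25, the ubiquitin ligase that activates RIG-I, had the highest level of the set and small differences. In nCas9 it stood at 43.7, 42.8 and 44.9 CPM with the HEKsite2 guide and at 51.3, 48.4 and 44.7 with the RNF2 guide. SpACE had 36.6, 36.1 and 41.4 CPM and 41.3, 41.2 and 39.3 CPM, and miniABEmax-V82G with the RNF2 guide had 41.8, 39.6 and 40.2. None of these 3 editor groups overlapped its nCas9 group. TRIM25 fell by 0.20 ± 0.0697 (adjusted p = 0.0309), 0.25 ± 0.0681 (adjusted p = 0.0109) and 0.25 ± 0.0691 (adjusted p = 0.0137). Without any filter on low counts, which raised the genes tested to 23872, none of the 3 passed. The first was also lost under DESeq2 (-0.21) and without nCas9 replicate 1 (-0.21) or 3 (-0.19) or SpACE replicate 1 (-0.18) or 2 (-0.17), the second without nCas9 replicate 1 (-0.20), and the third without nCas9 replicate 1 (-0.20) or 2 (-0.25) or miniABEmax-V82G replicate 2 (-0.23). TRIM25 overlaps DGKE, C17orf67 and a microRNA gene by 80 to 132 bases of exon. The opposite-strand AC015912.1, which is not among the counted genes, overlaps TRIM25 by 460. The strand setting of the counting is not given in the sources used here, so reads of the opposite-strand DGKE or AC015912.1 could have been counted with TRIM25.

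Among the transcription factors, STAT2 stood at 28.6, 32.6 and 31.7 CPM in GFP, 25.6, 27.8 and 30.5 in nCas9 with the HEKsite2 guide and 24.5, 24.1 and 22.9 with the RNF2 guide. The last group lay below all GFP libraries, and STAT2 fell by 0.38 ± 0.102 (adjusted p = 0.00272), a call that held in each fit without 1 library. The editor groups ran from 24.9 to 38.1 CPM and none differed from nCas9 beyond the threshold. IRF9, the DNA-binding part of ISGF3, was lowest in GFP at 2.89, 2.44 and 1.21 CPM, and stood at 3.52, 2.38 and 4.59 in nCas9 with the HEKsite2 guide and 2.67, 3.24 and 2.43 with the RNF2 guide. The groups overlapped, and its smallest adjusted p over the 10 comparisons was 0.0585. Against GFP IRF9 was called higher in ABEmax (0.89 ± 0.286) and miniABEmax-V82G (0.82 ± 0.275) with the HEKsite2 guide. IRF1, which interferon-gamma induces, was not called in the 10 comparisons and was higher than GFP in miniABEmax-V82G with either guide (0.48 ± 0.156 and 0.51 ± 0.159). IRF7, the amplifier of type I interferon, ran from -0.47 to 0.95 and was not called.

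IFI6 (chromosome 1, 27666061 to 27672218, minus strand), an interferon-induced membrane protein of the endoplasmic reticulum, was the member with the largest called fall between an editor and nCas9. With the HEKsite2 guide it stood at 3.76, 4.63 and 3.53 CPM in nCas9, 1.54, 1.84 and 2.35 in Target-AID and 1.73, 2.71 and 2.60 in SpACE, with no overlap between either editor and nCas9. It fell by 1.06 ± 0.239 with Target-AID (adjusted p = 0.000414) and by 0.74 ± 0.231 with SpACE (adjusted p = 0.0175). The SpACE call was lost without SpACE replicate 1 (-0.57), without nCas9 replicate 2 (-0.63) and under DESeq2 (-0.75). With the RNF2 guide nCas9 was more spread, at 2.09, 4.12 and 2.82 CPM, against 1.92, 2.01 and 1.72 in Target-AID. Here IFI6 fell by 0.66 ± 0.252 (adjusted p = 0.0357), and the call was lost in 5 of 6 fits that left out a library: without nCas9 replicate 2 (-0.37) or 3 (-0.70) and without Target-AID replicate 1 (-0.68), 2 (-0.72) or 3 (-0.60). Against GFP, at 3.59, 3.29 and 3.75 CPM, Target-AID was lower with both guides, by -0.90 ± 0.235 each. The Target-AID groups thus had the highest 2 of the 11 group means for IFIT5 and the lowest 2 for IFI6. The printed windows of both genes hold ISRE cores, whose part in these levels was not tested.

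DTX3L, PARP9 and PARP14 lie near each other on chromosome 3 and belong to the ADP-ribosylation arm of the response. DTX3L (122564238 to 122575203), a ubiquitin ligase that pairs with PARP9, was highest in GFP at 11.9, 14.0 and 13.7 CPM. In nCas9 it stood at 9.34, 7.57 and 8.70 CPM with the HEKsite2 guide and 9.28, 9.98 and 9.22 with the RNF2 guide, all below GFP. It fell by 0.62 ± 0.131 (adjusted p = 0.000198) and 0.47 ± 0.128 (adjusted p = 0.00261), and both calls held in each fit without 1 library. With the HEKsite2 guide Target-AID had 11.3, 11.8 and 10.4 CPM and SpACE 11.7, 11.5 and 12.9, and with the RNF2 guide Target-AID had 14.0, 12.3 and 11.6. All 9 lay above the nCas9 libraries of their guide. DTX3L rose by 0.39 ± 0.135 (adjusted p = 0.0195), 0.49 ± 0.135 (adjusted p = 0.00749) and 0.41 ± 0.129 (adjusted p = 0.0118). With GFP as the control these 3 differences were -0.23, -0.13 and -0.06 and did not pass, so the sign depends on which control is used. The first was lost without nCas9 replicate 2 (0.32) or Target-AID replicate 2 (0.34) and the third without Target-AID replicate 1 (0.33). PARP9, on the opposite strand and overlapping DTX3L by 139 bases, was not called.

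PARP14 (122680618 to 122730840), an ADP-ribosyltransferase that acts in STAT6 signalling, was counted almost only in Target-AID. Its 3 libraries with the HEKsite2 guide had 16, 13 and 18 counts (1.65, 1.26 and 2.23 CPM) and those with the RNF2 guide 21, 13 and 13 (2.24, 1.38 and 1.40 CPM). The 27 other libraries had 20 counts together, 13 of them with any and none above 3. All 6 Target-AID libraries were therefore above all others, and PARP14 passed the filter only through them, so a tested PARP14 had to differ and its call is a description, not a test. The ratio to nCas9 was 20.0 with the HEKsite2 guide (47 counts against 2, 95% exact counting interval 5.23 to 170) and 40.8 with the RNF2 guide (47 against 1, 6.98 to 1647), which covers counting error only. No SpACE group had more than 1 count. Other genes were also counted mainly in the Target-AID groups. From outside the interferon system these were HBB and HBD as above and the liver genes APOB (31 and 32 counts per group, at most 2 in any other group) and SERPINA1 (51 and 34, at most 1). The interferon-induced IFI16 (46 and 35, at most 3) was a further one. ALB, a defining liver gene, had 1 and 3 counts in these groups, and the part of these genes in the PARP14 result was not tested.

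The other 13 tested members were called in none of the 10 comparisons. Besides IFIH1, IRF9, IRF1, IRF7, HERC5 and PARP9 these were TRIM21, an intracellular antibody receptor (mean 8.18 CPM), the exonuclease ISG20 (2.28), the translation inhibitor SAMD9 (2.11), OAS3 (1.56), IFI35 (1.45), IFI27 (1.27) and IFI44L (0.778). OAS3, the one 2′-5′-oligoadenylate synthetase with enough counts to test, ran from -0.70 to 0.77, with a smallest adjusted p of 0.0689. TRIM21 ran from -0.29 to 0.08 and was called lower than GFP in 5 of the 8 editor groups. IFI44L was called lower than GFP in Target-AID with the RNF2 guide (-1.31) and SAMD9 in miniABEmax-V82G with that guide (-0.64).

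**Figure D4:**
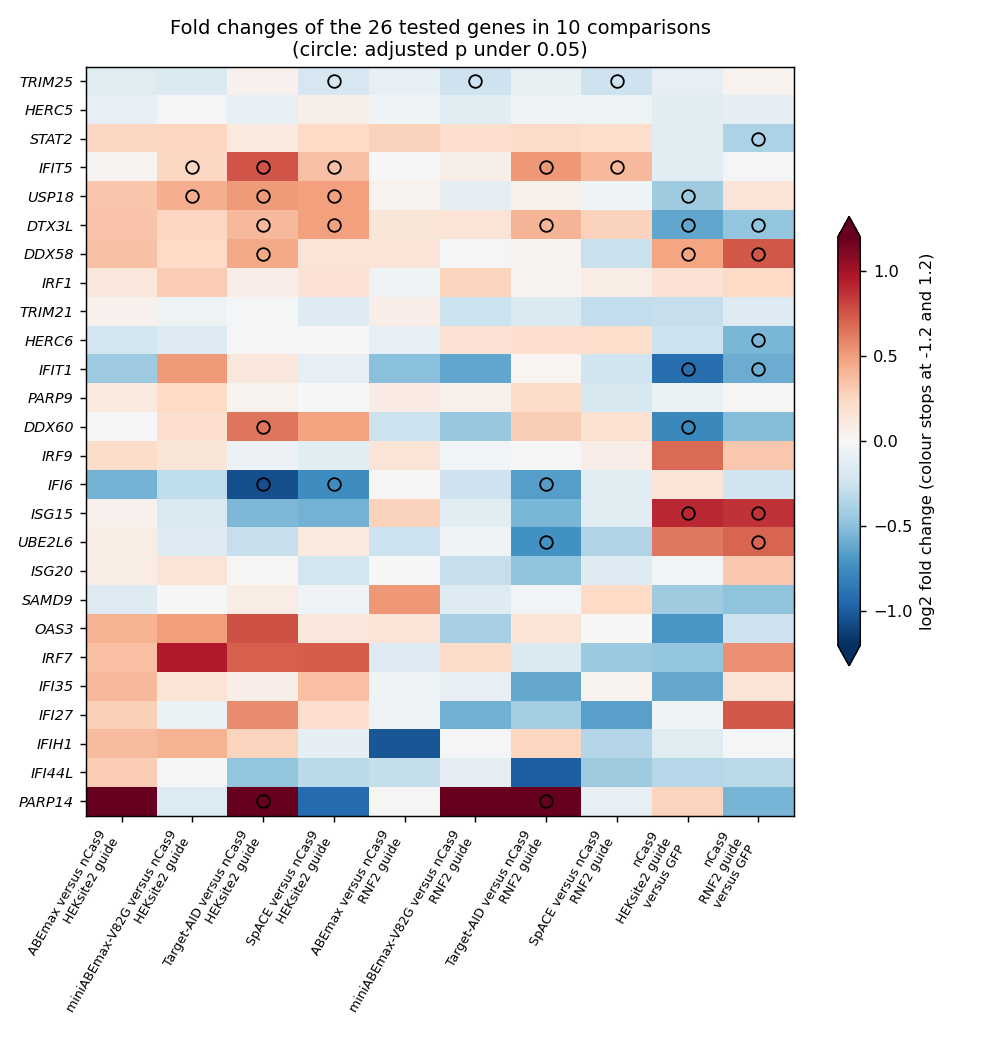
Log2 fold changes of the 26 tested genes (rows, by mean level) in the 10 comparisons (columns), with circles for adjusted p under 0.05 and colours that stop at -1.2 and 1.2. IFIT5 is red in Target-AID and SpACE with both guides, IFI6 is blue in Target-AID with both guides, and the 2 columns against GFP are red for ISG15 and DDX58 and blue for IFIT1 and DTX3L; PARP14 values outside Target-AID rest on 5 or fewer counts a group.

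The guides were then compared within each construct. Beyond USP18 in nCas9 and IFIT1 in miniABEmax-V82G, 0 members were called with ABEmax (0.472% of all genes higher and 1.79% lower), with Target-AID (0.0% and 0.0%) and with SpACE (0.00684% and 0.0342%). Unadjusted p was under 0.05 for 4, 0 and 1 members in these 3, and DESeq2 called 0 in each. No member passed the test of a difference between guides in an editor's effect, which is the interaction of editor and guide. Those interactions gave 0 higher and 0 lower calls for ABEmax (0.0% and 0.0% of all genes), miniABEmax-V82G (0.00684% and 0.00684%), Target-AID (0.137% and 0.0274%) and SpACE (0.0205% and 0.00684%), with 0, 2, 2 and 2 members at an unadjusted p under 0.05 and 0 calls by DESeq2. The median SE of a member's interaction ran from 0.35 to 0.36 on the log2 scale, against 0.22 to 0.26 for the 10 comparisons, so the interactions were measured less precisely.

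The steps that precede these genes were read from lists of the same pathway. Of 6 tested interferon receptor chains, 3 rose with Target-AID and the HEKsite2 guide and 4 with the RNF2 guide, and 0 fell, where 21.5% and 19.4% of all genes were called higher and 19.1% and 15.8% lower. IFNLR1, the receptor for type III interferon, rose by 0.92 ± 0.128 and 0.75 ± 0.128 with Target-AID and by 0.58 ± 0.133 and 0.47 ± 0.133 with SpACE. IFNAR1, a chain of the type I receptor, was lower in nCas9 than in GFP by -0.41 ± 0.0659 and -0.64 ± 0.0669. With GFP as the control Target-AID had 2 chains higher and 1 lower under the HEKsite2 guide. Under the RNF2 guide 2 were higher and 3 lower. In these comparisons with GFP 46.4% and 46.2% of all genes were called either way. The balance of the receptor calls thus depends on which control is used. IFNLR1 had 312 counts in the GFP group and 246 and 259 in the nCas9 groups, against 548 and 502 in Target-AID and 413 and 396 in SpACE. Of 11 tested genes of the signalling core, 4 rose and 2 fell with Target-AID against nCas9 and the HEKsite2 guide, and 2 rose and 2 fell with the RNF2 guide. These shares, 36.4% higher and 18.2% lower and then 18.2% each way, were near those of all genes except for the 36.4%. They included SOCS3, an inhibitor of cytokine receptors, which rose by 1.21 ± 0.234 and 0.85 ± 0.226.

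Of 17 tested genes of nucleic acid sensing, ABEmax had 5 higher and 0 lower with the HEKsite2 guide and 4 and 0 with the RNF2 guide. That is 29.4% and 23.5% higher against 8.31% and 6.51% of all genes. With GFP as the control ABEmax had 6 higher and 6 lower under the HEKsite2 guide and 6 and 4 under the RNF2 guide. There 46.8% and 49.6% of all genes were called either way. The balance of these calls thus depends on which control is used. Against nCas9 0 of the 26 interferon-stimulated genes were called with ABEmax, but they were measured less precisely. Their median SE was 0.26 and 0.24 on the log2 scale, against 0.092 and 0.091 for the sensing genes. Median log2 fold changes were 0.13 and -0.0044 for the members and 0.058 and 0.14 for the sensing genes. The most marked sensing gene was IKBKE, a kinase that phosphorylates IRF3 and IRF7, which rose by 2.48 ± 0.149 and 2.14 ± 0.147. Its counts were 497 and 485 in the ABEmax groups against 101 and 111 in nCas9. The adaptor TRAF3 rose by 0.43 ± 0.0652 and 0.35 ± 0.0627, and the RNA-dependent kinase EIF2AK2 (PKR) by 0.33 ± 0.0730 and 0.29 ± 0.0718. EIF2AK2 is also in the further list of interferon-stimulated genes described below. Target-AID had 8 higher and 1 lower with the HEKsite2 guide and 7 and 2 with the RNF2 guide (21.5% and 19.1%, then 19.4% and 15.8% of all genes), among them TBK1 (0.51 ± 0.0782 and 0.62 ± 0.0785), with IRF3 lower (-0.46 ± 0.0913 and -0.43 ± 0.0910). IFI16 is counted there and passed the filter only through Target-AID, and without it 7 and 1, then 6 and 2, of 16 were called. With GFP as the control, and IFI16 included, Target-AID had 4 higher and 1 lower, then 5 and 2. In those comparisons 46.4% and 46.2% of all genes were called either way. Against nCas9 SpACE had 5 higher and 1 lower (10.7% and 10.2% of all genes), then 4 and 0 (8.03% and 6.68%). For miniABEmax-V82G the counts were 2 and 0 (5.02% and 5.32%), then 4 and 1 (6.88% and 5.72%). Against GFP nCas9 had 3 higher and 7 lower with each guide (19.6% and 18.8%, then 21.0% and 20.5% of all genes), with TBK1 lower (-0.53 ± 0.0777 and -0.63 ± 0.0781) and IRF3 higher (0.60 ± 0.0917 and 0.58 ± 0.0916). For both genes these signs are opposite to those of Target-AID against nCas9. The Target-AID differences of TBK1 and IRF3 thus depend on which control is used.

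A further list held 56 interferon-stimulated genes, of which 39 were tested. With Target-AID 5 were higher and 11 lower under the HEKsite2 guide (12.8% and 28.2%, against 21.5% and 19.1% of all genes) and 4 and 14 under the RNF2 guide (10.3% and 35.9%, against 19.4% and 15.8%), and the median gene stood at -0.18 and -0.14. Without IFI16 the counts were 4 and 11, then 3 and 14, of 38. They included the class I light chain B2M, which fell by 0.56 ± 0.0621 and 0.42 ± 0.0621, and the proteasome activator PSME2, which fell by 0.75 ± 0.0987 and 0.67 ± 0.0985. With SpACE 3 were higher and 7 lower under the HEKsite2 guide (7.69% and 17.9%, against 10.7% and 10.2% of all genes) and 1 and 2 under the RNF2 guide (2.56% and 5.13%, against 8.03% and 6.68%). With ABEmax the counts were 2 and 7 (5.13% and 17.9%, against 8.31% and 7.55%), then 1 and 4 (2.56% and 10.3%, against 6.51% and 4.66%). With miniABEmax-V82G they were 2 and 1 (5.13% and 2.56%, against 5.02% and 5.32%), then 3 and 4 (7.69% and 10.3%, against 6.88% and 5.72%). Comparisons with the same guide share their nCas9 libraries. B2M and PSME2 had mean levels of 167 and 28.0 CPM. In nCas9 against GFP 7 of the 39 were higher and 7 lower under the HEKsite2 guide (17.9% each, against 19.6% and 18.8% of all genes). Under the RNF2 guide 6 were higher and 8 lower (15.4% and 20.5%, against 21.0% and 20.5%). PARP10 had the largest rise in these 2 comparisons, by 2.34 ± 0.510 and 2.61 ± 0.487, from 9 counts in the GFP group to 38 and 47. Of 19 tested NF-kB and cytokine genes, 5 rose and 2 fell in nCas9 against GFP with the HEKsite2 guide and 6 and 2 with the RNF2 guide, with a median of 0.33 and 0.36. These were 26.3% and 10.5%, then 31.6% and 10.5%, against 19.6% and 18.8%, then 21.0% and 20.5%, of all genes. RELB, of the non-canonical arm, rose by 0.97 ± 0.171 and 0.77 ± 0.175.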

How the data were processed

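RNA-seq libraries were made with a stranded total RNA kit from sorted HEK293T cells, 3 per group. The raw counts per gene deposited by the authors were used as given. STAR, GATK 3.8.1, Picard 2.7 and GRCh38 are named per the submitters' processing notes, while for the counting tool, its annotation and whether it used strand, nothing is given in the sources used here. Columns of the count table were matched to samples by name, with 0 columns left over. UGI appears in the names of the SpACE columns and not in the labels.

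All 33 libraries were fitted together in edgeR 4.0.16 (R 4.3.3, limma 3.58.1) with 1 term per group, filterByExpr, TMM scaling and the quasi-likelihood test with 22 residual degrees of freedom. The test was adjusted by Benjamini-Hochberg over 14613 of 26475 genes, and the procedure was tested on simulated data. Alternatives were RLE scaling, no filter, DESeq2 1.42.0, fits restricted to the compared groups, a replicate block, GFP in place of nCas9, and leaving out each library. Tables and figures used Python 3.11.15, pandas 2.3.3 and matplotlib 3.10.9.

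The members and gene lists were chosen with earlier results of these data known. Library values are given for 8 genes whatever their values (ISG15, IFIT1, MX1, OAS1, IFIH1, DDX58, STAT2 and IRF9) and for each member called in at least 3 of the 10 comparisons, and other called members are named with their fold change. Library values of UBE2L6, HERC6, DDX60 and PARP14, outside this rule, are shown as well, chosen after their values were seen. Counts without PARP14, and without IFI16, were also added after seeing the data. Up to 4 called genes per comparison could be named from a related list, by smallest p. Gene positions are from GENCODE 29 and promoters from RefSeq (GRCh38.p14). Totals were 6790209 to 11200406 counts per library, so 3 counts correspond to 0.442 CPM in the shallowest library.

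Libraries with the same replicate number deviated together in every pair, at a correlation over 0.1, for ABEmax against nCas9 with the RNF2 guide (0.144 to 0.300) and for the guides within Target-AID (0.160 to 0.411). The number was taken to pair the libraries there, and the blocked count of members called was 0 in both.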

Additional observations from a re-analysis of the deposited data

How the results depend on the processing

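Of 37 called differences of single members, all 37 kept their call under RLE scaling and under the replicate block, 33 with only the groups compared, 31 without a filter on low counts and 29 with DESeq2. In the fits that left out 1 library 167 values kept the call and 55 lost it. GFP could replace nCas9 only in the editor comparisons, where 13 kept the call, 5 lost it with the same sign and 4 lost it with the sign reversed: DTX3L to -0.23 (Target-AID) and -0.13 (SpACE) with the HEKsite2 guide and -0.0632 (Target-AID) with the RNF2 guide, and DDX60 to -0.14 (Target-AID, HEKsite2 guide). The cause was not tested.

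The counts of members called that moved by more than 1.5 times are given first by setting. With GFP in place of nCas9 they were 9 for ABEmax and 9 for miniABEmax-V82G with the HEKsite2 guide, and 6 for ABEmax, 11 for miniABEmax-V82G and 6 for SpACE with the RNF2 guide. With DESeq2 they were 1 for miniABEmax-V82G and 3 for SpACE with the HEKsite2 guide, 3 for Target-AID with the RNF2 guide and 0 for the guides within miniABEmax-V82G. With only the groups compared they were 1 for miniABEmax-V82G with the HEKsite2 guide, 3 for Target-AID with the RNF2 guide and 2 for the guides within miniABEmax-V82G. Without a filter, with 23872 genes tested, they were 0 for miniABEmax-V82G and 1 for SpACE with the RNF2 guide and 2 for the guides within miniABEmax-V82G. Leaving out 1 library gave the following ranges, whether or not they moved that far: 0 to 1 for ABEmax, 0 to 3 for miniABEmax-V82G, 5 to 7 for Target-AID and 3 to 5 for SpACE with the HEKsite2 guide, 0 to 1 for miniABEmax-V82G, 2 to 5 for Target-AID and 1 to 2 for SpACE with the RNF2 guide, 5 to 7 for nCas9 against GFP with either guide, and 0 to 2 for the guides within miniABEmax-V82G. Without PARP14 the Target-AID counts were 6 (HEKsite2 guide) and 4 (RNF2 guide), an alternative chosen after seeing the data.

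With the replicate block the count was 2 for miniABEmax-V82G against nCas9 with the RNF2 guide and 2 for the guides within miniABEmax-V82G, each 1 without it. Outside the 2 paired comparisons the number was not taken to pair the libraries, although 25 of 33 libraries were closest to their own number. The median correlation was 0.0515 within a number and -0.0256 between numbers over 10891 genes. For miniABEmax-V82G against nCas9 with the HEKsite2 guide, 2 of 3 pairs were over 0.1, up to 0.326. Same-numbered libraries thus share some deviation beyond those 2 comparisons, and its source was not tested. Depth limits the 13 untested members and those near 1 CPM, such as IFIH1.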
